A study of Arabidopsis thaliana with 18 samples.

Results

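The genes described here are those whose expression difference between gemin2 mutant and wild type Arabidopsis thaliana plants had one sign at 22 °C and the other sign after 24 h at 10 °C. The deposited gene table holds 33602 genes, of which 33319 are nuclear and are not 1 of 4 rRNA genes, and 14894 of these had a mean of 5 or more CPM, reads of a gene scaled to the library total, over the 18 libraries. For each of them d was computed as log2 of the ratio of mean gemin2 CPM to mean WT CPM, with 0.5 CPM added to each mean. Signs of d at 22 °C and after 24 h were opposite in 4370 genes, and the 150 with the largest smaller absolute d were taken as members. The members were thus chosen by the measured differences at 22 °C and after 24 h, and those differences are given below as a description with no test. Of the 150 members, 120 were higher in gemin2 at 22 °C and lower after 24 h, and 30 were lower at 22 °C and higher after 24 h. The smallest values inside the threshold were 0.4506 for AT3G43960, 0.4484 for AT5G07580 and 0.4473 for SQP1 (AT5G24150), and the largest outside it were 0.4468 for JAZ6 (AT1G72450), 0.4451 for MES18 (AT5G58310) and 0.4445 for BZIP61 (AT3G58120).

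RNA came from whole plants aged 9 days that had been stratified in the dark and raised in continuous white light on agarose medium. The 6 groups, of 3 libraries each, were WT of the Col ecotype at 22 °C, WT after 1 h at 10 °C, WT after 24 h at 10 °C, and gemin2 mutant plants under the same 3 conditions. The file headers name the mutant allele gemin2-1. The labels do not tell if the 3 libraries of a group were grown apart. The p-values therefore cover the spread among these libraries alone, which may be technical, and the clock hour of harvest is not given in the sources used here.

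GEMIN2 belongs to the SMN complex, which loads the ring of Sm proteins onto small nuclear RNAs and so makes the core of the spliceosomal particles. In Arabidopsis the circadian clock runs on in continuous light, and its morning factors LHY and CCA1 bind the evening element upstream of evening-expressed genes. Cold changes many transcripts within hours, among them those for starch breakdown, and RNA of whole plants averages over all organs.

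The library labels were checked with the targeted gene. GEMIN2 (AT1G54380) ran from 9.459 to 23.32 CPM in WT and from 2.732 to 5.919 CPM in gemin2, with no overlap in any condition. Its log2 fold change in edgeR's quasi-likelihood test was -1.79 ± 0.13 (SE) at 22 °C, -1.85 ± 0.13 after 1 h and -2.03 ± 0.12 after 24 h. Library totals ran from 15675913 to 53766089 gene counts. Library C of gemin2 at 22 °C held 4.893% nuclear rRNA and 17.55% chloroplast counts, against at most 0.8961% and 3.166% in the other 17 libraries. After 1 h the chi-square per gene between gemin2 libraries A and B was 70.61 and between A and C 55.6, against 7.716 between B and C. For the same pairs after 24 h it was 40.21, 35.53 and 9.209 in gemin2 and 26.08, 15.11 and 8.058 in WT. The median d over all 14894 genes was 0.12 at 22 °C, 0.20 after 1 h and 0.06 after 24 h, and after TMM scaling it was 0.01, 0.05 and -0.01. All 150 members kept both signs under TMM scaling. The fold changes below are edgeR values after TMM scaling and levels are CPM.

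Upstream sequence was not used in choosing the members, and a few windows are shown because they hold the motifs counted below. Windows of 250 bases before the gene start, as the deposited table places it, were read from the NCBI RefSeq TAIR10.1 sequence for 14828 of the 14894 genes, and matches were counted on both strands. The evening element (AAAATATCT), a clock motif, was found upstream of 21 of the 120 members that were higher and then lower (17.5%), of 0 of the 30 that were lower and then higher, and of 2.51% of all genes. The ABRE core (ACGTG), the centre of abscisic acid response elements, was found upstream of 21 of the 30 members that were lower and then higher (70.0%), of 36 of the other 120 and of 26.8% of all genes. The G-box (CACGTG), which always contains the ABRE core, was found in 26.7% of the 30, 10.8% of the 120 and 9.62% of all genes. The windows below belong to GRP7 (chr2:9266394-9266643, minus strand), FKF1 (chr1:25508426-25508675, plus strand), ISA3 (chr4:5783824-5784073, plus strand) and LHY (chr1:37872-38121, minus strand). They are written in the gene's direction, end at the base before the gene start, and have evening elements, G-boxes and ABRE cores in capitals on whichever strand they were found.
GRP7: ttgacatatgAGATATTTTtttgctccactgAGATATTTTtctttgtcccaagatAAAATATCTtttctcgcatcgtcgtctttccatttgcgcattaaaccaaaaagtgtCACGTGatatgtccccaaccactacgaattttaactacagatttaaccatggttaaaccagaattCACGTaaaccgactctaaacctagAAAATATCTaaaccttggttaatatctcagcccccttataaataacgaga
FKF1: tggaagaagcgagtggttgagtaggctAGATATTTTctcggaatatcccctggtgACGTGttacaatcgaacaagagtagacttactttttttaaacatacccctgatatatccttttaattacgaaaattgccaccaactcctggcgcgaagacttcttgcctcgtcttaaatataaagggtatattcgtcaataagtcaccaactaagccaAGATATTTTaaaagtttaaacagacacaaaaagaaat
ISA3: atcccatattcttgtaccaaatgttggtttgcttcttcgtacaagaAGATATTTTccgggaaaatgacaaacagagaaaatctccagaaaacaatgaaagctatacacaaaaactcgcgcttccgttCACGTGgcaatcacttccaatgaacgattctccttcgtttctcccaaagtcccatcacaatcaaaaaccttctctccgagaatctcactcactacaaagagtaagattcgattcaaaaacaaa
LHY: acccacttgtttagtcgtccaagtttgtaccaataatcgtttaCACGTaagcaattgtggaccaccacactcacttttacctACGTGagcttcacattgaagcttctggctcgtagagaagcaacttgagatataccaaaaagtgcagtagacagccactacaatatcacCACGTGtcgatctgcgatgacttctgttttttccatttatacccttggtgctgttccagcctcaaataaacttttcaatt
The GRP7 window holds 4 evening elements, between 240 and 42 bases before the start, beside 1 G-box and 1 ABRE core outside it. FKF1 has 2 evening elements and 1 ABRE core outside a G-box, and ISA3 has 1 evening element and 1 G-box. LHY has no evening element in its window and has 1 G-box, 75 to 80 bases before the start, with 2 further ABRE cores. A match describes letters and not a bound site.

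**Figure D1:**
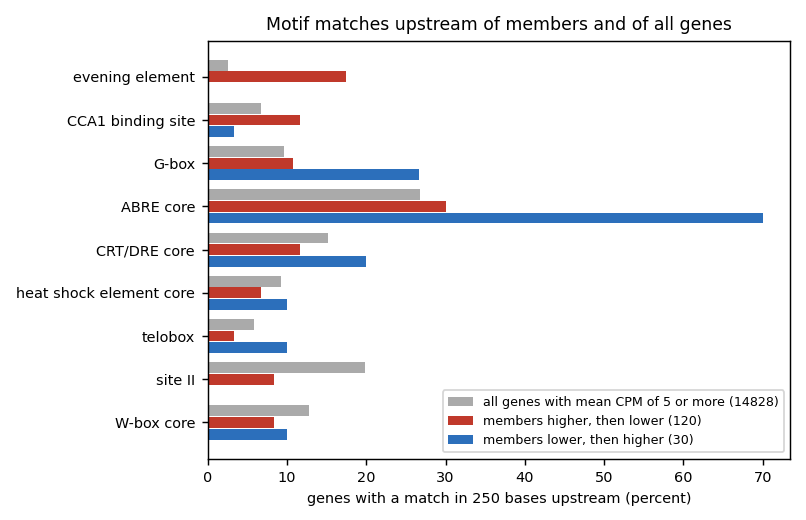
Percent of genes with a motif match in the 250 bases upstream, by motif, for all genes with mean CPM of 5 or more (grey, n = 14828), the 120 members that were higher then lower (red) and the 30 that were lower then higher (blue). The red bar of the evening element reaches 17.5% against 2.51% of all genes, and the blue bar of the ABRE core reaches 70.0% against 26.8%.

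Genes that had opposite signs but smaller differences had lower shares of both motifs. The evening element lay upstream of 3.03% of the 2875 such genes that were higher at 22 °C, and the ABRE core upstream of 29.4% of the 1321 that were lower. The CCA1 binding site (AAAAATCT) was found in 11.7% of the 120, 3.33% of the 30 and 6.72% of all genes. Site II (TGGGCC), common upstream of genes of the translation apparatus, was found in 8.33% of the 120, in 0 of the 30 and in 19.8% of all genes. The CRT/DRE core of cold-response factors (CCGAC) was found in 14 of the 120, in 6 of the 30 and in 15.2% of all genes, the heat shock element core (GAANNTTC) in 8 of the 120, 3 of the 30 and 9.22% of all, the telobox (AAACCCTA) in 4 of the 120, 3 of the 30 and 5.87% of all, and the W-box core (TTGACC) in 10 of the 120, 3 of the 30 and 12.8% of all. The 21 members with an evening element include GRP7, FKF1, ISA3, DYL1, PORB, FBA5, GASA6, STP14, ACR4, RIBA2, Fes1B, WCRKC1, GATL7 and VSP1. These shares are descriptions and were not tested.

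**Figure D2:**
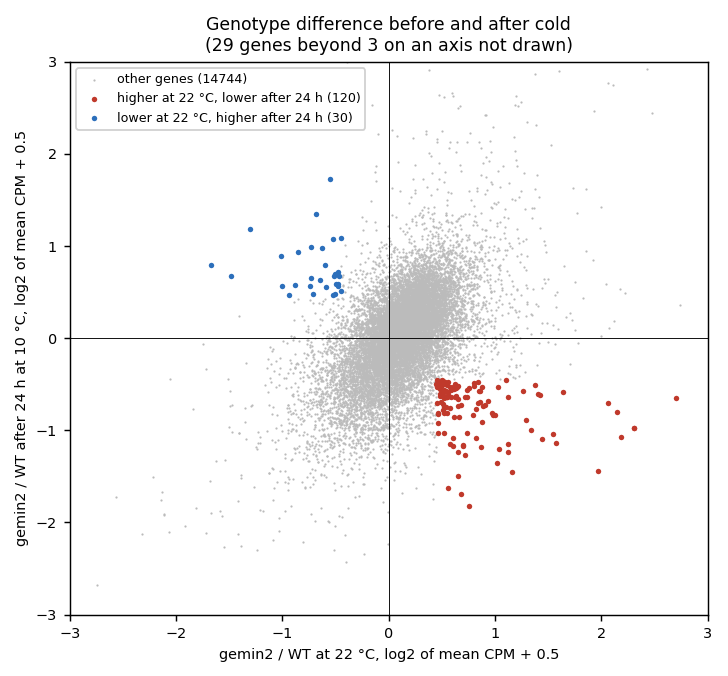
Difference d between gemin2 and WT at 22 °C (horizontal axis) and after 24 h at 10 °C (vertical axis), each as log2 of the ratio of mean CPM plus 0.5, for 14894 genes. The 120 red points and the 30 blue points are the members, which the choice places in the corners away from both axes.

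After 1 h at 10 °C, in libraries that the choice used only through the mean level, most members still had the sign they had at 22 °C. Of the 120 members that were higher at 22 °C, 49 were called higher in gemin2 after 1 h and 2 lower (edgeR's quasi-likelihood test, adjusted p under 0.05 over 21726 genes), where 20.1% of all genes were called higher and 15.3% lower. Of the 30 members that were lower at 22 °C, 18 were called lower and 0 higher. The median log2 fold change after 1 h was 0.35 in the 120, -0.57 in the 30 and 0.05 in all genes tested, and it was above 0 in 89 of the 120 and in 2 of the 30. By d, 82.5% of the 120 were above 0 after 1 h, against 85.87% of all genes higher at 22 °C. Below 0 were 86.67% of the 30, against 66.55% of all genes lower at 22 °C. The 3 gemin2 libraries lay above all 3 WT libraries in 67 of the 120 members, against 32.8% of all genes, and below them in 15 of the 30, against 15.8% of all genes. Other genes that reached the smallest member value at 22 °C were called with the same sign after 1 h more often than the members. Of 1886 other genes with a d of at least the smallest member value at 22 °C, 71.7% were called higher after 1 h, compared with 40.8% of the 120 members. Of 818 other genes as far below 0, 79.3% were called lower, compared with 60.0% of the 30 members.

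**Figure D3:**
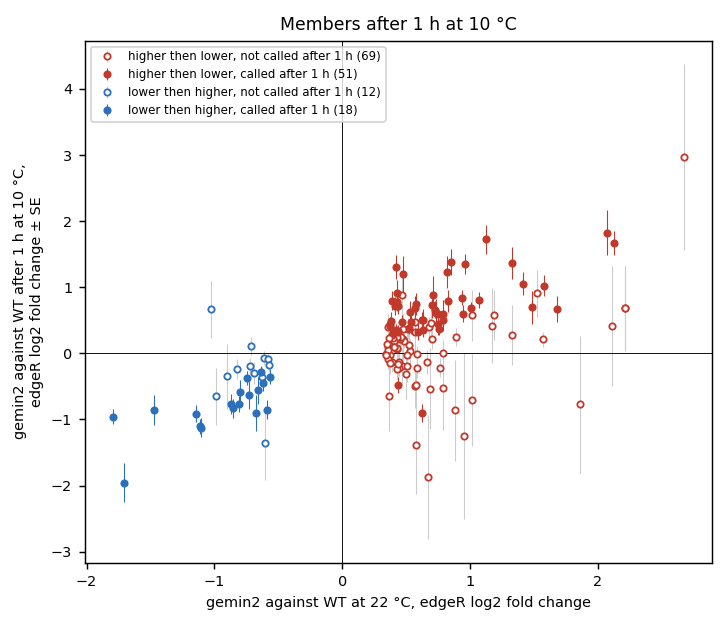
Log2 fold change of gemin2 against WT after 1 h (vertical axis, with SE) against that at 22 °C (horizontal axis, which chose the members) for the 150 members. Filled points passed an adjusted p of 0.05 after 1 h, which holds for 51 of the 120 red and 18 of the 30 blue members, and only 2 filled red points lie below 0.

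At 22 °C, 78 of the 120 members were past an adjusted p of 0.05 in the higher direction (11.3% of all genes were) and 25 of the 30 in the lower direction (9.56% of all genes). After 24 h, 95 of the 120 were past it in the lower direction (20.3% of all genes) and 25 of the 30 in the higher direction (19.4% of all genes). Both differences were past the threshold in 73 of the 120 (0.75% of all genes) and in 24 of the 30 (0.525% of all genes). In 89 of the 120 and 23 of the 30 the gemin2 and WT libraries did not overlap in either condition. No overlap in both conditions, in opposite directions, was found in 3.38% of the 14894 genes. Nothing is read from these counts, since the same contrasts chose the members.

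**Figure D4:**
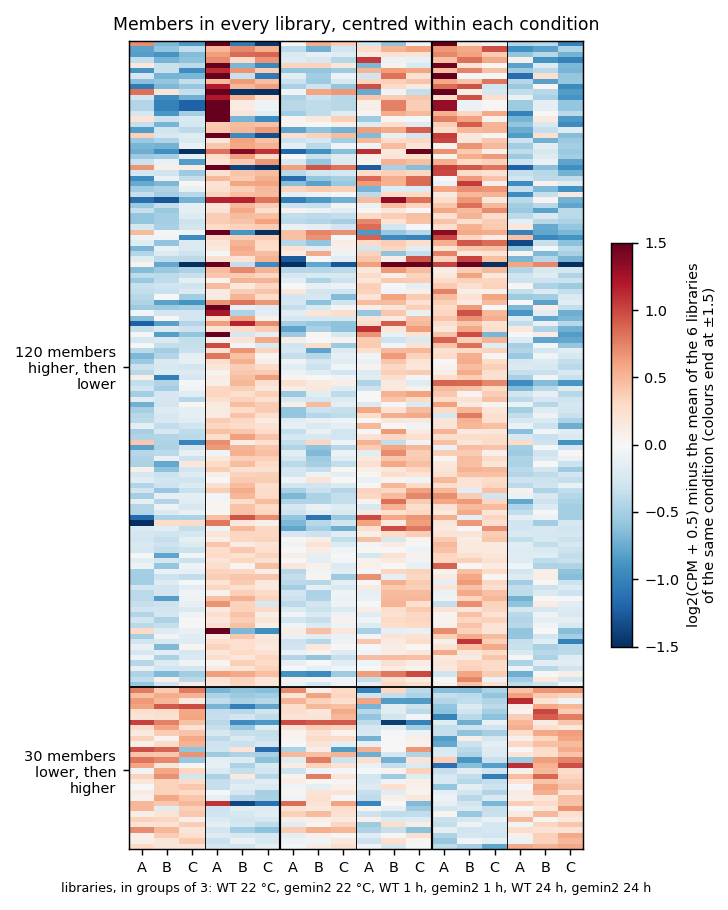
Level of each of the 150 members (rows) in each of the 18 libraries (columns), as log2(CPM + 0.5) minus the mean of the 6 libraries of the same condition. Rows are ordered within each direction by the smaller absolute d. In the upper 120 rows gemin2 is red at 22 °C and blue after 24 h, and a set of rows is dark red only in gemin2 library A at 22 °C.

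Clock genes were among the members on both sides. LHY and the related factors RVE8 and RVE2, MYB-like proteins that peak around dawn, were lower in gemin2 at 22 °C and after 1 h and higher after 24 h. LHY (AT1G01060, chr1:33379-37871) stood at 106, 132 and 137 CPM in WT and 42.7, 33.8 and 40.1 CPM in gemin2 at 22 °C. After 1 h it stood at 78.1, 92.6 and 89.6 CPM in WT and 40.0, 58.0 and 52.3 CPM in gemin2, and after 24 h at 82.0, 107 and 94.2 CPM in WT and 133, 183 and 175 CPM in gemin2. The groups did not overlap in any condition, and between 22 °C and 24 h LHY fell by 0.43 in WT and rose by 2.09 in gemin2 on the log2 scale. The log2 fold change of LHY after 1 h was -0.96 ± 0.11 (adjusted p = 2.99e-06, edgeR). RVE8 (AT3G09600, chr3:2946406-2948995), which activates evening genes, fell from 47.3, 51.3 and 49.95 CPM at 22 °C to 17.01, 16.5 and 14.3 CPM after 24 h in WT, and stood at 25.1, 23.7 and 24.1 CPM and then at 33.6, 28.6 and 27.7 CPM in gemin2. After 1 h RVE8 was lower in gemin2 by a log2 fold change of -0.91 ± 0.13 (adjusted p = 2.37e-05, edgeR) and RVE2 (AT5G37260) by -0.83 ± 0.14 (adjusted p = 0.000251).

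FKF1 and GRP7 went the other way. FKF1 (AT1G68050, chr1:25508676-25510889), a blue light receptor and F-box protein of the afternoon, stood at 5.18, 8.58 and 8.61 CPM in WT and 16.7, 23.8 and 20.1 CPM in gemin2 at 22 °C. After 1 h it stood at 31.2, 21.6 and 31.6 CPM in WT and at 92.8, 70.0 and 74.2 CPM in gemin2, a log2 fold change of 1.36 ± 0.24 (adjusted p = 0.000607, edgeR). After 24 h the groups overlapped for FKF1, at 28.4, 17.5 and 24.3 CPM in WT and 17.3, 18.15 and 13.4 CPM in gemin2. GRP7 (AT2G21660, chr2:9265249-9266393), an RNA-binding protein whose own mRNA oscillates and rises in the cold, ran from 512 to 584 CPM in WT and from 868 to 1172 CPM in gemin2 at 22 °C. After 24 h GRP7 ran from 4061 to 4395 CPM in WT and from 2553 to 3096 CPM in gemin2, so it rose in both genotypes and less in gemin2. Its log2 fold change after 1 h was 0.66 ± 0.12 (adjusted p = 0.000332, edgeR).

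The clock list held 26 genes, 4 of them members. At 22 °C 10 were past the threshold in the higher direction and 6 in the lower. After 1 h 14 were called higher and 6 lower, and after 24 h 12 and 1. The shares of all genes were 11.3% higher and 9.56% lower at 22 °C, 20.1% and 15.3% after 1 h, and 19.4% and 20.3% after 24 h. CCA1 (AT2G46830), the close relative of LHY, is no member: its log2 fold change was -1.53 ± 0.12 at 22 °C, -1.05 ± 0.12 after 1 h and 0.18 ± 0.12 after 24 h. The evening genes GI (AT1G22770) and TOC1 (AT5G61380) were higher in gemin2 at 22 °C by 1.31 and 0.91 and had values of 0.29 and 0.24 after 24 h, on the log2 scale, so for them the difference shrank without a change of sign.

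Starch breakdown was the other pathway with several members. PHS1 (AT3G29320, chr3:11252807-11257814), the plastid starch phosphorylase, SEX1 (AT1G10760, chr1:3581034-3590928), the glucan water dikinase that opens starch granules, DPE2 (AT2G40840, chr2:17044963-17050947), which uses maltose in the cytosol, and ISA3 (AT4G09020, chr4:5784074-5789002), the debranching enzyme, were all higher in gemin2 at 22 °C and lower after 24 h. SEX1 stood at 166, 167 and 171 CPM in WT and 272, 348 and 305 CPM in gemin2 at 22 °C. After 1 h SEX1 stood at 184, 184 and 179 CPM in WT and 255, 270 and 260 CPM in gemin2, and after 24 h at 825, 825 and 835 CPM in WT and 577, 547 and 590 CPM in gemin2. No groups overlapped, and SEX1 rose in the cold in both genotypes, by 2.28 on the log2 scale in WT and by 0.92 in gemin2. ISA3 rose from 24.3, 20.9 and 28.1 CPM to 720, 673 and 786 CPM in WT and from 36.2, 46.5 and 36.7 CPM to 328, 278 and 364 CPM in gemin2. PHS1 rose in WT from between 110 and 125 CPM to between 170 and 221 CPM and fell in gemin2 from between 238 and 285 CPM to between 116 and 134 CPM.

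After 1 h PHS1 was higher in gemin2 by 0.69 ± 0.08 (adjusted p = 3.33e-06), DPE2 by 0.38 ± 0.09 (adjusted p = 0.00183) and SEX1 by 0.37 ± 0.09 (adjusted p = 0.00384), all log2 fold changes from edgeR, while ISA3 had a value of -0.02 ± 0.13. The starch breakdown list held 10 genes, which do not include PHS1, and 3 of them, SEX1, DPE2 and ISA3, are members. Those 3 were chosen by the differences at 22 °C and after 24 h, so the list's values there are a description. At 22 °C 5 of them were past the threshold in the higher direction (11.3% of all genes) and 2 in the lower (9.56%). After 1 h 3 were called higher (20.1% of all genes) and 3 lower (15.3%). After 24 h 9 were past it in the lower direction (20.3% of all genes) and 0 in the higher (19.4%). The list median moved from 0.31 at 22 °C to 0.14 after 1 h and -0.58 after 24 h on the log2 scale, where all genes tested had medians of 0.01, 0.05 and -0.02. PHS2 (AT3G46970), the cytosolic phosphorylase, had 1.08, 0.63 and -0.50 in the 3 conditions without being a member under the CPM rule. LDA (AT5G04360), a debranching enzyme, was lower in all 3, by -0.97, -0.83 and -1.02.

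**Figure D5:**
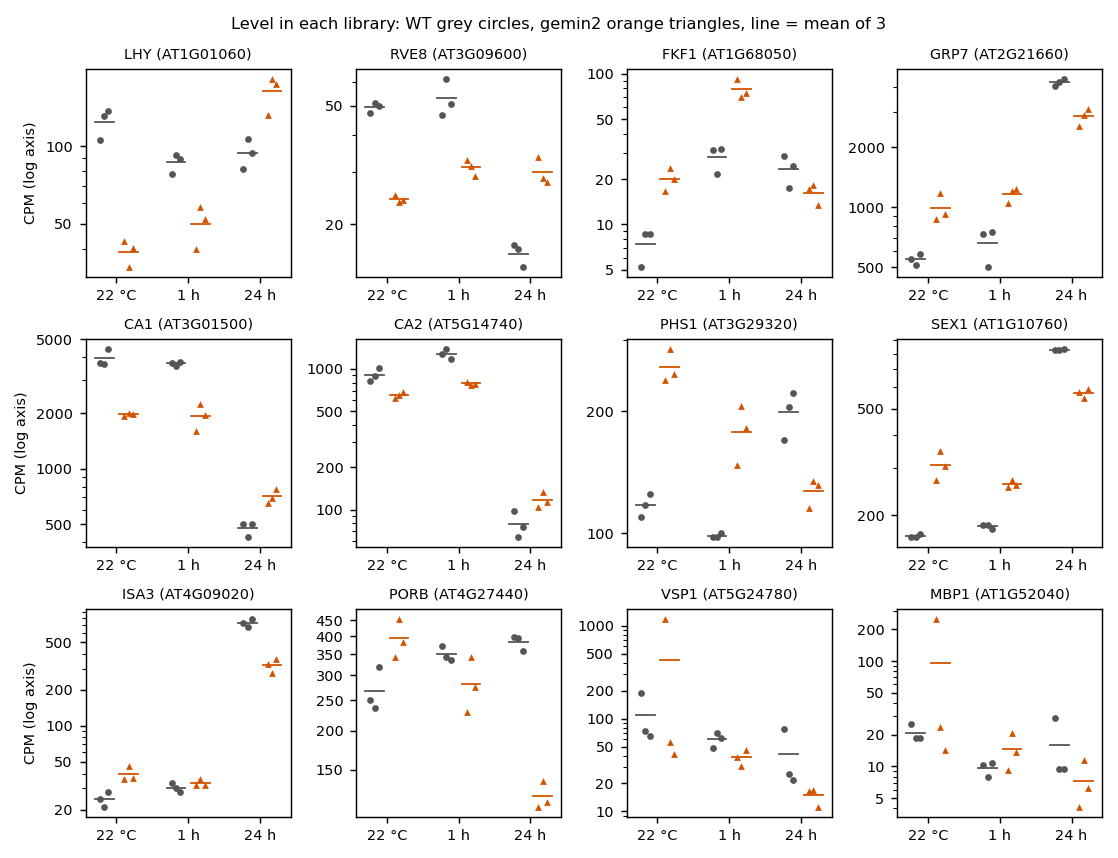
CPM of 12 members on log axes in every library, by condition, with WT as grey circles, gemin2 as orange triangles and a line at the mean of 3. LHY, RVE8, CA1 and CA2 cross upwards in gemin2 and GRP7, PHS1, SEX1, ISA3 and PORB cross downwards, whereas the means of VSP1 and MBP1 at 22 °C are carried by 1 gemin2 library.

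The carbonic anhydrases CA1 and CA2, abundant enzymes of leaf chloroplasts and cytosol that hydrate carbon dioxide, were lower and then higher. CA1 (AT3G01500, chr3:194724-198019) ran from 3678 to 4453 CPM in WT and from 1920 to 2012 CPM in gemin2 at 22 °C. After 1 h CA1 stood at 3719, 3613 and 3794 CPM in WT and 1597, 2243 and 1942 CPM in gemin2, a log2 fold change of -1.11 ± 0.11 (adjusted p = 2.94e-07, edgeR). After 24 h CA1 stood at 504, 426 and 503 CPM in WT and 655, 694 and 782 CPM in gemin2, so it fell in both and less in gemin2. CA2 (AT5G14740) had -0.85 ± 0.14 after 1 h (adjusted p = 0.000167) and fell by 3.54 in WT and by 2.46 in gemin2 after 24 h, on the log2 scale. BBX32 (AT3G21150), a B-box protein of light signalling, stood at 40.2, 38.6 and 38.6 CPM in WT and 15.4, 7.20 and 9.73 CPM in gemin2 after 1 h, a log2 fold change of -1.96 ± 0.29 (adjusted p = 0.000178, edgeR). AT4G33070, a pyruvate decarboxylase of fermentation, ranked next after VSP1 by the smaller absolute d. It rose in the cold from between 19.98 and 26.3 CPM to between 147 and 166 CPM in WT and from between 9.11 and 9.73 CPM to between 315 and 370 CPM in gemin2. After 1 h its groups overlapped and its log2 fold change was -0.85 ± 0.22 (adjusted p = 0.00847, edgeR). NDA1 (AT1G07180), an alternative NAD(P)H dehydrogenase, and DFD (AT3G55630), a folate enzyme, had -0.37 ± 0.10 (adjusted p = 0.00627) and -0.76 ± 0.12 (adjusted p = 7.52e-05) after 1 h.

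PORB and OFP16 were the 2 members called after 1 h with the sign opposite to that at 22 °C. PORB (AT4G27440, chr4:13725546-13727353), a protochlorophyllide reductase of chlorophyll synthesis, stood at 250, 236 and 318 CPM in WT and 343, 455 and 384 CPM in gemin2 at 22 °C. After 1 h PORB stood at 373, 344 and 336 CPM in WT and 229, 343 and 276 CPM in gemin2, a log2 fold change of -0.48 ± 0.11 (adjusted p = 0.00299, edgeR), and after 24 h at 397, 395 and 360 CPM and 114, 139 and 118 CPM. The groups overlapped after 1 h and not in the other conditions. OFP16 (AT2G32100), of the ovate family, had 20.3, 21.2 and 20.6 CPM in WT and 9.63, 13.97 and 13.8 CPM in gemin2 after 1 h, a log2 fold change of -0.90 ± 0.14 (adjusted p = 5.46e-05, edgeR). AT1G75960, of the AMP-dependent synthetase family, rose after 1 h in WT to between 20.9 and 22.6 CPM from between 3.39 and 4.05 CPM, and its difference between genotypes after 1 h was 0.22 ± 0.11 on the log2 scale, against 1.58 at 22 °C and -1.39 after 24 h.

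Of the other members higher at 22 °C, AT5G62360, ATIM, PHS1, AT4G40065 and BT4 had the smallest adjusted p-values in the higher direction after 1 h. Members named for the largest smaller absolute d were left out of this ranking. AT5G62360, an invertase and pectin methylesterase inhibitor homologue, stood at 8.14, 9.14 and 10.1 CPM in WT and 23.9, 43.6 and 30.4 CPM in gemin2 after 1 h, a log2 fold change of 1.66 ± 0.18 (adjusted p = 1.66e-06, edgeR). ATIM (AT5G52910), of the timeless family, had 1.36 ± 0.15 and BT4 (AT5G67480), a BTB and TAZ domain protein, had 0.84 ± 0.12. NUDT8 (AT5G47240), a nudix hydrolase, had 1.05 ± 0.17, Fes1B (AT3G53800), a nucleotide exchange factor of HSP70 chaperones, 1.02 ± 0.16, and the DNAJ protein AT5G23240 0.81 ± 0.13. AT5G23240 shares its locus with AT5G23235, also a member, on the other strand. The kit does not mark strand, so reads in the stretch they share cannot be assigned to one of them. In all, 20 members overlap another gene and 6 of these overlap another member. AT3G28290 and AT3G28300 (both AT14A) are identical over 1864 bases and had equal counts in all 18 libraries, so these members rest on 1 measurement.

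Grouped by annotated product, 14 members were transcription factors or DNA-binding proteins, of which 3 were called higher and 4 lower after 1 h, where 20.1% of all genes and 40.8% of the 120 members were called higher and 15.3% of all genes lower. The family counts are small and nothing is read from them. The 8 members with peroxidase, oxidase, dehydrogenase or oxidoreductase in their product name gave 4 and 3. The peroxidase AT5G39580 stood at 4.93, 7.54 and 8.04 CPM in WT and 21.1, 17.03 and 20.9 CPM in gemin2 after 1 h, a log2 fold change of 1.38 ± 0.19 (adjusted p = 2.99e-05, edgeR). Of 6 members with a kinase in their product name, all from the 120, 4 were called higher after 1 h. All 3 members with F-box or ubiquitin in their product name, FKF1, AT1G23390 and AT1G73120, were called higher after 1 h. The 8 transporters or channels gave 4 higher and 2 lower, and the 8 cell wall members 1 higher and 0 lower. HAB1 (AT1G72770), a phosphatase that holds back abscisic acid signalling, had -0.09 ± 0.10 after 1 h, with -0.58 at 22 °C and 0.62 after 24 h. The abscisic acid response list held 12 genes, of which HAB1 is a member. After 24 h 10 of the 12 were past the threshold in the higher direction (19.4% of all genes). After 1 h 4 were called higher (20.1%). At 22 °C 1 of the 12 was higher (11.3% of all genes) and 1 lower (9.56%).

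The largest change of all belonged to a group whose sign at 22 °C rested on 1 library. VSP1 (AT5G24780), a vegetative storage protein induced by jasmonate, stood at 189, 72.9 and 64.4 CPM in WT and at 1188, 55.5 and 42.0 CPM in gemin2 libraries A, B and C at 22 °C. After 1 h VSP1 stood at 48.0, 69.1 and 61.4 CPM in WT and 38.7, 31.0 and 45.6 CPM in gemin2. After 24 h it stood at 77.7, 25.1 and 21.8 CPM in WT and 16.6, 17.1 and 11.1 CPM in gemin2. So only library A of gemin2 at 22 °C was above WT, and without it d of VSP1 at 22 °C moved from 1.97 to -1.15. The sign at 22 °C depended on that library in 11 members: VSP1, VSP2, BGLU18, MBP1, MBP2, TSA1, JAL23, CSLA01, NATA1, AT1G66100 and AT3G28220. BGLU18, a beta-glucosidase of endoplasmic reticulum bodies, stood at 1847, 247 and 203 CPM in gemin2 at 22 °C, and MBP1, a myrosinase-binding protein, at 252, 23.9 and 14.3 CPM.

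In the 11 genes library A was between 2.62 and 22.8 times the higher of B and C, whereas the median over the other 109 members of the same direction was 0.874 times and the highest 5.724 times, in both AT14A genes. Library A also carried much of d at 22 °C in some of those 109, where leaving it out moved d from 2.30 to 0.88 in AT14A, from 1.27 to 0.24 in AT5G05600 and from 0.57 to 0.10 in PGIP2. WT library A was also the highest of its group at 22 °C in all 11. None of the 11 passed the test at 22 °C or after 1 h by edgeR, and 1 did after 24 h. Of all genes, 11.3% were called higher and 9.56% lower at 22 °C, and 20.1% and 15.3% after 1 h. After 24 h these shares were 19.4% and 20.3%. The gemin2 libraries lay below all WT libraries in 8 of the 11 after 1 h (15.8% of all genes). After 24 h, a contrast that chose the members, they did so in 7 of the 11 (22.27% of all genes). Fitting only the 6 libraries of 1 h, which leaves the spread at 22 °C out, gave VSP1 -0.81 (adjusted p = 0.0131), VSP2 -1.43 (adjusted p = 2.26e-05) and BGLU18 -0.75 (adjusted p = 0.00213) on the log2 scale, each lower in gemin2. The fit over all groups, which includes that spread, gave them -0.77, -1.39 and -0.71 (adjusted p = 0.594, 0.16 and 0.46, edgeR). Others of the 11 went the other way after 1 h. NATA1 stood at 0.418, 1.84 and 1.15 CPM in WT and 5.66, 14.7 and 12.0 CPM in gemin2 after 1 h, all gemin2 libraries above all WT, with a log2 fold change of 2.96 ± 1.41 (adjusted p = 0.121, edgeR over all groups). MBP1 had 0.41 ± 0.91 in the same fit, and its libraries overlapped. The 13 tested genes of the jasmonate list include VSP1 and VSP2. Of the 13, JAZ1 was the one past the threshold at 22 °C, at 0.83 (11.3% of all genes were higher). After 1 h 2 were called higher (20.1% of all genes) and 1 lower (15.3%). After 24 h 0 were higher (19.4%) and 3 lower (20.3%). Leaving out any of the other 11 libraries at 22 °C and after 24 h changed the sign of no member. Some values of d after 24 h leaned on WT library A of that condition, however. Without it d moved from -1.45 to -0.64 in VSP1, from -1.24 to -0.64 in BGLU18 and from -1.07 to -0.36 in MBP1. In AT14A it was -0.37 without that library, smaller in size than the 0.4473 of the last member. JAL23 and VSP2 still had -1.77 and -1.38.

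The cold response of every member differs by genotype because of how the members were chosen. The counts below describe the direction of the responses and were not tested. In WT, 36 of the 120 members rose by a log2 change of 1 or more after 24 h (11.6% of all genes tested) and 32 fell by as much (12.2%). In gemin2, 9 of the same 120 rose by that much (11.6% of all genes) and 68 fell (15.1%). Of the 36 that rose in WT, 9 rose in gemin2 too, 23 lay between the limits and 4 fell. ISA3, SEX1, DPE2, GRP7 and BT4 rose in WT by that measure. PORB rose by 0.50 in WT and fell by 1.64 in gemin2, and NUDT8 fell by 1.03 and by 3.90, on the log2 scale. Of the 30 members that were lower and then higher, 19 fell in WT and 8 in gemin2, while 3 and 7 rose. CA1, RVE2 and DFD fell in WT by 3.06, 2.59 and 3.21 and in gemin2 by 1.45, 0.79 and 1.05.

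Each intron was tested after 1 h with the count of its own gene in each library as offset. The choice used gene counts at 22 °C and after 24 h, which enter the shared fit but not the 1 h difference. Of 142 introns tested in 64 members after 1 h, 21 were higher in gemin2 relative to the gene (12.2% of all 9358 introns tested were) and 7 were lower (1.7% of all). The median log2 fold change was 0.36 over the members' introns and 0.24 over all. The 5 members with the smallest adjusted p-values are shown by their 5′ splice sites, with 10 exon bases and 20 intron bases in the gene's direction and the GT that opens the intron in capitals, from GRP7 (chr2:9266183-9266212, minus), ACA4 (chr2:17332620-17332649, minus), MAM1 (chr5:7705470-7705499, plus), CA1 (chr3:195386-195415, minus) and AT1G22330 (chr1:7887065-7887094, plus).
GRP7: tgattccaagGTctgttacacgccgagatc
ACA4: cttttgccagGTaccattcgcaaacaaaaa
MAM1: gcttgaggagGTatcatcatttttgttacc
CA1: atgtgaaaggGTatacaaacacatgttaga
AT1G22330: acgcctcgagGTtcgttaactcaatccata
All 5 introns open with GT and close with AG, and all 5 passed the test in each of the 6 fits that left out 1 library of 1 h.

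The GRP7 intron (chr2:9265894-9266202) of 309 bases held counts equal to 3.92%, 4.59% and 3.96% of the gene count in WT and 8.77%, 10.1% and 8.72% in gemin2 after 1 h. At 22 °C the percents were 5.36, 7.09 and 5.97 in WT and 6.24, 6.93 and 7.08 in gemin2. The groups overlapped at 22 °C and lay apart after 1 h, where the log2 fold change relative to the gene was 1.14 ± 0.12 (adjusted p = 4.17e-08, edgeR). The intron of ACA4 (AT2G41560) at chr2:17332562-17332639, towards the 3′ end of this gene for a calcium pump of the vacuole, held 0.250%, 0.284% and 0.272% of the gene count in WT and 1.47%, 1.85% and 1.77% in gemin2, a log2 fold change of 2.63 ± 0.37 (adjusted p = 5.91e-06). The intron of MAM1 (AT5G23010) at chr5:7705480-7705569, a gene for an enzyme of glucosinolate synthesis, rose from 0.112%, 0.161% and 0.153% in WT to 0.579%, 0.478% and 0.589% in gemin2 (1.91 ± 0.28, adjusted p = 8.6e-06). In CA1 the gene was lower in gemin2 and its intron at chr3:195338-195405, towards the 3′ end, had a relative change of 1.1008 ± 0.20 (adjusted p = 0.000159), while without the gene as offset the intron's own change was 0.00. The intron of AT1G22330, an RNA-binding protein gene, was lower in gemin2, at 8.62%, 10.4% and 9.06% in WT and 2.32%, 2.41% and 3.00% in gemin2 (-1.87 ± 0.30, adjusted p = 3.76e-05). In RVE2 the intron at chr5:14752106-14752236 held 3.68%, 1.89% and 2.22% in WT and 9.25%, 9.06% and 9.23% in gemin2, and in ISA3 the intron at chr4:5787255-5787338 held 0, 1 and 0 counts in WT and 14, 6 and 11 counts in gemin2.

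Alternative splicing bins passed the test in 3 members. Of 43 bins tested in 28 members after 1 h, 3 were higher in gemin2 (6.22% of all 3809 bins tested were) and 1 was lower (2.23% of all). The 2 neighbouring bins of CA2, of 3 and 4 bases, held 7.63%, 6.38% and 9.61% and 8.47%, 7.23% and 11.3% of the gene count in WT against 10.3%, 12.8% and 13.3% and 12.1%, 14.96% and 15.5% in gemin2. Their log2 fold changes were 0.62 ± 0.12 (adjusted p = 0.00316) and 0.65 ± 0.14 (adjusted p = 0.0058) relative to the gene, and they passed in each fit that left out 1 library, while those of AT5G20790 and DYL1 did not. The bins adjoin and may share reads.

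The median gene length of the members was 2038 bases against 2386 bases over the 14894 genes, their median number of introns 3 against 4, and 30 of 150 had no intron, against 13.2% of the genes. Chromosome 5 held 44 of the 150 (29.3%, against 23.4% of all) and chromosome 1 held 36 (24.0% against 26.1%). In RNA from whole plants, fewer cells of a type and less RNA per cell cannot be told apart. The summed level of the 12 root markers was 140 to 163 CPM in WT and 161 to 173 CPM in gemin2 at 22 °C, 165 to 175 and 152 to 160 CPM after 1 h, and 142 to 148 and 122 to 125 CPM after 24 h, so the genotypes overlapped at 22 °C and gemin2 was lower after 1 h and 24 h. Of the 12 root markers, 1 was past the threshold in each direction at 22 °C (11.3% of all genes were higher and 9.56% lower). After 1 h 5 were called lower (15.3% of all genes) and 0 higher (20.1%), and after 24 h 4 were lower (20.3%). WOX5 was below 1 CPM in every library. No root marker is a member, and the part of organ proportions in the members' differences was not tested. The summed level of the 6 markers of dividing tissue overlapped between genotypes in each condition, at 87.6 to 101 and 90.4 to 103 CPM at 22 °C and 60.4 to 65.0 and 57.6 to 78.1 CPM after 24 h.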

How the data were processed

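The deposited tables hold the count of reads per gene, intron and alternative splicing bin in 18 libraries, with feature positions and widths. Per the submitters' processing notes the authors used TopHat2 2.0.9, R 3.0.2, edgeR 3.4.2 and TAIR10. No source used here names the counting program or says how it treated strand. The labels' kit does not mark strand. The 42 deposited tables of comparisons were not used here. Columns carry library letters A to C, which no source ties to the replicate numbers of the labels.

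CPM were computed over nuclear genes without 4 rRNA genes. Genes passing filterByExpr were tested with edgeR 4.0.16 (TMM, quasi-likelihood, R 4.3.3) over 6 groups, and introns and bins with a mean of 10 or more counts against the count of their gene (mean of 50 or more, at least 10 in every library) as offset. Adjusted p-values are Benjamini-Hochberg over all features tested, with a threshold of 0.05. SE was derived from the fold change and its F statistic. Percents of a gene's count are ratios of 2 counts. Members, lists and the naming rule were chosen with earlier results of these data known. The rule named GEMIN2, the 10 largest smaller absolute d per direction and the 5 smallest adjusted p-values after 1 h per sign. It also named members on gene lists, up to 3 per product family, and up to 5 with a called intron or bin. Some are left out for length, and others were named after their values were seen. Of 120457 introns, 98.67% had GT and AG ends in TAIR10.1, and windows used the deposited gene starts. Near-identical genes were sought with blastn 2.17.0 at 95% identity. The fits were tried on simulated data. Alternatives were DESeq2 1.42.0, RLE factors, other filters and pseudocounts, fits of fewer libraries, a replicate block and left-out libraries.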

Additional observations from a re-analysis of the deposited data

Results flagged for a closer look

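The intron of GRP7 (AT2G21660) stood out because its genotype difference after 1 h differed from that at 22 °C by a test of the difference itself. The genotype by 1 h interaction relative to the gene was 1.01 ± 0.17 on the log2 scale (1.0067, adjusted p = 0.00566 by edgeR over 9358 introns), from 0.14 ± 0.12 at 22 °C to 1.14 ± 0.12 after 1 h. After 24 h the value was 0.95 ± 0.12. GRP7 gene counts at 22 °C, on which the gene was chosen, enter the offset of this test. Of all introns tested, 6 had such an interaction past the threshold, and 1 of the 142 in members.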

How the results depend on the processing

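Members called after 1 h numbered 69, and 66 with RLE factors, 69 with no filter, 71 with DESeq2, 81 with only the libraries of 1 h and 57 to 69 when 1 library was left out. Of the 69, 55 to 62 stayed called in the leave-outs. All genes called numbered 7696 of 21726 in the main fit, 7599 with RLE factors, 7306 with no filter and 8122 with DESeq2. They numbered 7240 with only the libraries of 1 h and 5406 to 8295 in the leave-outs. No source says that a letter is shared across groups, and correlations of same-letter deviations ran from -0.119 to 0.102 at 22 °C and after 1 h and from 0.0912 to 0.205 after 24 h, where each library correlated best with its own letter. Whether letters pair the libraries is thus undecided, and with them as a replicate block 75 members and 8420 of all genes were called. The rule still picked 113 members with TMM scaling (107 higher then lower and 43 lower then higher in all). With pseudocounts of 0.1 and 2 CPM it still picked 142 and 132, and with a minimum of 10 CPM 111. When 1 library was left out it still picked 123 to 136. Leaving out 3 libraries together, gemin2 C at 22 °C and library A of both genotypes after 24 h, it still picked 121. Library A of gemin2 at 22 °C was kept there. That alternative was chosen after seeing the data, as was the reading of signs without each library. In all 12 leave-outs 59 members were picked. Called introns of members numbered 28, and 32 with a mean of 3 counts, 34 with no host gene offset and 17 to 29 in the leave-outs (17 without WT 1 h B, 18 without gemin2 1 h B); called bins numbered 4, 4, 6 and 2 to 5 (2 without WT 1 h A, WT 1 h B, gemin2 1 h B or gemin2 1 h C). The leave-out fits have fewer libraries; the cause of the other changes was not tested.

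For 65 named genes, 660 of 713 alternative values kept direction and call, 34 lost the call, 14 gained it and 5 changed sign, all of them in genes not called: AT5G14920 ran from -0.0502 (without gemin2 1 h A) to 0.8155 over the leave-outs, ISA3 from -0.0991 to 0.0661 (above 0 without WT 1 h A or gemin2 1 h C), BAT1 from -0.088 (without gemin2 1 h A) to 0.3206 and MAM1 from -0.253 to 0.0039 (without WT 1 h B). Library A of gemin2 after 1 h moved AZI1 from -0.65 to -1.46 when left out (adjusted p = 0.00441, edgeR). Low intron counts, such as 0 and 1 in ISA3, limit fold changes at this depth.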
